A study of Homo sapiens with 4 samples.

Results

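The J-domain proteins, or DNAJ family, are the co-chaperones that bring substrates to the HSP70 chaperones and switch on HSP70's ATPase, and the family's members differ in where they work and what they carry. Genes were taken as members where the identifier in the count table mapped to a symbol of the form DNAJA, DNAJB or DNAJC with a number and the 4 library counts summed to at least 40. The pattern matched 44 symbols and 39 met the minimum, out of 20263 genes in the table. The 39 comprise 3 class A genes, 11 class B genes and 25 class C genes.

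The libraries were made from MDA-MB-231, an established line of human triple-negative breast cancer cells. Cells of one group received RB-1 and cells of the other the solvent DMSO, each for 24 h, with 2 libraries per group. RB-1 is a code name, which the series title describes as a derivative of the CDK4 and CDK6 inhibitor ribociclib, and no dose is given in the labels. The study asked what RB-1 does to gene expression in breast cancer cells. The labels name no separate cultures behind the 2 libraries of a group, so p-values here measure the spread between samples only, and that spread may be technical.

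A J domain is a short helical fold whose loop holds the residues histidine, proline and aspartate, and this HPD loop is what stimulates HSP70. Class A proteins carry in addition a glycine- and phenylalanine-rich stretch and a zinc-binding region. Class B proteins keep the glycine- and phenylalanine-rich stretch without the zinc-binding region, and class C proteins share little with the others beyond the J domain. Several members are induced by heat shock through the transcription factor HSF1, and some of those in the endoplasmic reticulum belong to the unfolded protein response.

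The codons of the HPD loop are the one feature that the symbols promise, and they are shown for 7 members to let the classes be compared. The search read the coding strand in frame for CAC or CAT, then CCN, then GAC or GAT, in 1 principal coding transcript per gene of GENCODE v29 (GRCh38). Capitals mark the match in each stretch of 45 coding bases.
DNAJA1: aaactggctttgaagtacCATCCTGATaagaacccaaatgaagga
DNAJA2: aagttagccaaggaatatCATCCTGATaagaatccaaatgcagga
DNAJB1: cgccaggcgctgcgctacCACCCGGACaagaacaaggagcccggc
DNAJB9: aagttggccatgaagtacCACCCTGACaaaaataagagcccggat
DNAJC2: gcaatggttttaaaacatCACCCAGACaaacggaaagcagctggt
DNAJC13: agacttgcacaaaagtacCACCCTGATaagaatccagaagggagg
DNAJC19: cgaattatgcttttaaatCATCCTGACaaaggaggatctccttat
The match was found once in 38 of the 39 members (97.4%), against 5.58% of the 19532 coding genes in the table, and was absent only from DNAJB13. Its position differed between members. The histidine is codon 34 in DNAJA1, codon 36 in DNAJA2 and codon 32 in DNAJB1, near the start of the protein. It is codon 54 in DNAJB9, codon 90 in DNAJC19, codon 119 in DNAJC2 and codon 1332 in DNAJC13.

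The deposited values are raw counts per gene, and library totals ran from 34122874 to 37754168. Levels below are CPM, a gene's count as a share of the library size on the usual scale, with sizes adjusted by TMM, a normalisation that assumes most genes do not differ. Mitochondrially encoded genes took 21.7% of the counts in DMSO replicate 2, against 4.25% to 8.68% in the other libraries, so DMSO replicate 2 stands apart, and calls that end without it are given with that fit's adjusted p. The part of this share in the results was not tested. Of the 5 markers fixed for a mesenchymal-like breast cancer line, 4 were at or above 10 CPM in every library, with a summed level of 6319 to 7240 CPM in DMSO and 7233 to 8033 CPM in RB-1, and 1 of the 5, CAV1, fell (-0.90 ± 0.22, adjusted p = 0.0133). Luminal markers summed to 316 to 335 CPM in DMSO and 319 to 423 CPM in RB-1, nearly all of it KRT8, with CDH1 and ESR1 under 1 CPM throughout. Of the 4 luminal markers tested, 2 fell: GATA3 from 9.69 and 21.9 CPM to 2.25 and 3.18 CPM (adjusted p = 0.00329) and PGR from 1.46 and 1.77 CPM to 0.318 and 0.534 CPM (adjusted p = 0.0221). Their part in the results was not tested. Fibroblast markers summed to at most 10.6 CPM with DCN at 0. Leukocyte markers were at 160 to 341 CPM in DMSO and 201 to 220 CPM in RB-1 through CD68, with CD3E at 0 and PTPRC and CD79A under 1 CPM.

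After RB-1, the class A gene DNAJA1 and 5 class C genes fell, led by DNAJC13 (6.93-fold), DNAJC2 (5.37-fold) and DNAJA1 (3.89-fold). DNAJB2, DNAJB9, DNAJC5 and DNAJC19 rose, each by about the same amount, from 2.01-fold to 2.23-fold. The other 29 members did not pass. The test was edgeR's quasi-likelihood F test, two-sided, with Benjamini-Hochberg adjustment over all 13612 genes tested and a threshold of 0.05, and every adjusted p-value below comes from it unless another setting is named. All 39 members had enough counts to be tested.

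The called share of the family was close to that of all genes. Of all genes tested, 12.5% were higher, 15.8% lower and 28.3% called in either direction, against 10.3%, 15.4% and 25.6% of the members. The log2 fold change was positive in 20 members and negative in 19, with a median of 0.046 against 0.012 over all genes. Both RB-1 libraries lay above both DMSO libraries in 12 members (35.3% of all genes) and below them in 13 (34.3% of all genes). These 25 are 64.1% of the members, and 69.7% of all genes tested had groups that did not overlap. Of the 10 called, 9 changed at least 2-fold, and 23.2% of all genes were called and changed by as much. The falls were deeper than the rises: the log2 fold change reached -2.79 on the low side and 1.15 on the high side.

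**Figure D1:**
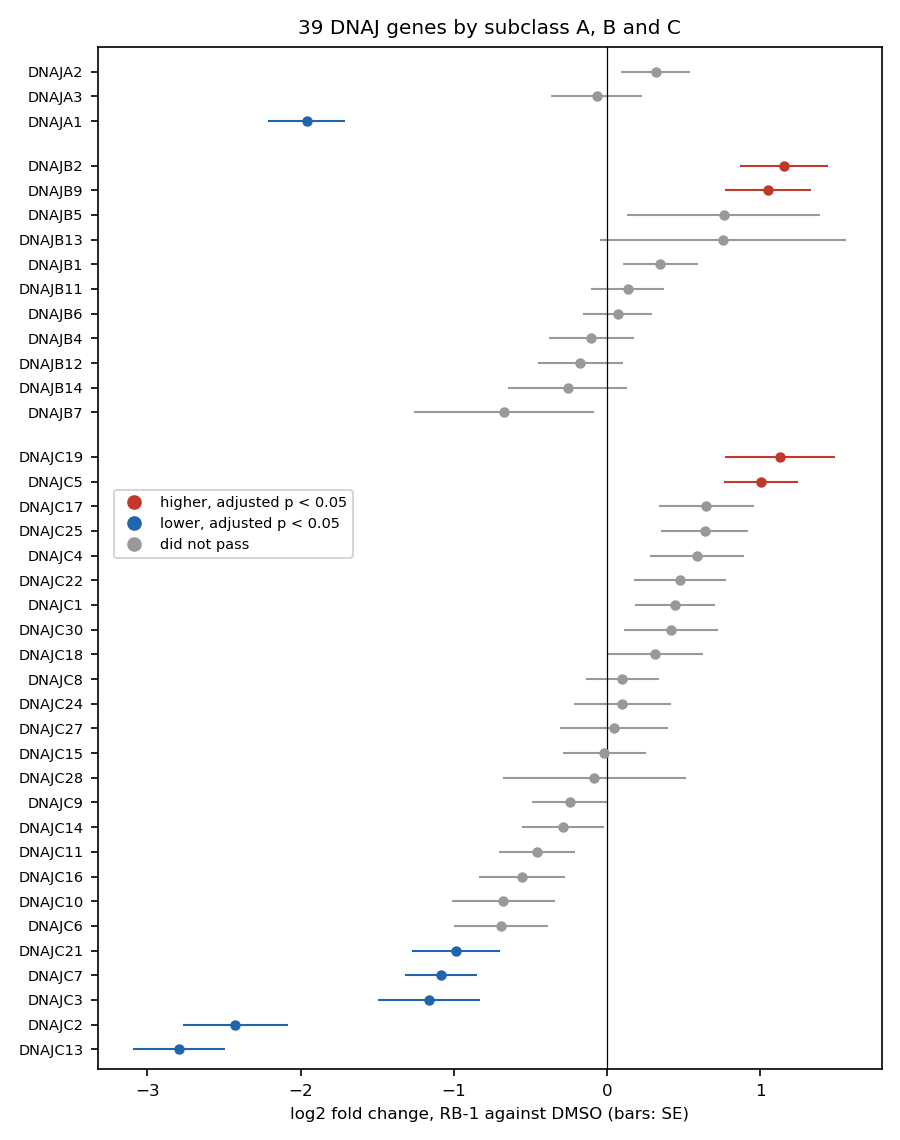
Log2 fold change of each of the 39 DNAJ genes, RB-1 against DMSO, ordered within class A, B and C; bars are the standard error from the fit and colour shows the call at an adjusted p of 0.05. The largest falls are DNAJC13, DNAJC2 and DNAJA1, and the 4 rises lie between 1.0 and 1.15.

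By class, 1 of 3 class A genes fell (33.3%) and none rose. In class B, 2 of 11 rose (18.2%) and none fell, with a median log2 fold change of 0.13. In class C, 2 of 25 rose (8%) and 5 fell (20%), with a median of -0.018. Over all genes 12.5% were higher and 15.8% lower. The counts of members depend on single libraries. With a library left out, a member called need not be one of the 10 called with all libraries. The rise called without DMSO replicate 2 was not in DNAJB2, DNAJB9, DNAJC5 or DNAJC19. With all libraries 4 members were higher and 6 lower. Leaving out DMSO replicate 1 gave 1 higher and 4 lower, DMSO replicate 2 gave 1 and 3, RB-1 replicate 1 gave 1 and 4, and RB-1 replicate 2 gave 4 and 7. The called share of members was then 12.8%, 10.3%, 12.8% and 28.2%, beside 13.4%, 10.6%, 13.1% and 31.2% of all genes.

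DNAJA1 is a cytosolic class A co-chaperone of HSPA8 that helps newly made and misfolded proteins fold. Its level was 468 and 406 CPM in the DMSO libraries and 95.5 and 129 CPM in the RB-1 libraries. The groups were far apart, with the lowest DMSO library more than 3 times the highest RB-1 library. The fitted log2 fold change was -1.96 ± 0.25 (SE) with an adjusted p of 0.000692. The fall passed in 14 of 14 alternative settings, with log2 fold changes from -2.19 to -1.75. The annotation holds 6 DNAJA1 pseudogenes and the count table none, and the treatment of reads that match several copies is a detail not given in the sources used here.

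DNAJA2, a class A relative of DNAJA1 and also a cytosolic partner of HSPA8, did not pass. It had 130 CPM in each DMSO library and 170 and 155 CPM in the RB-1 libraries, so both RB-1 libraries were above. Its log2 fold change was 0.32 ± 0.23 with an adjusted p of 0.309. It passed as higher under the length and GC correction described below, at 0.67 with an adjusted p of 0.0349, and did not with the replicate block added (0.65, adjusted p = 0.0576). DNAJA3, the mitochondrial class A protein that works with HSPA9, had 62.7 and 62.2 CPM in DMSO and 74.3 and 45 CPM in RB-1. The RB-1 libraries lay on both sides of DMSO, and the log2 fold change was -0.07 ± 0.30 (adjusted p = 0.888). DNAJA4, the fourth class A gene, had counts of 2 and 6 in DMSO and 0 and 8 in RB-1, a sum of 16 that kept it out of the set.

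The ratio of 2 genes in the same library needs no scaling between libraries. DNAJA1 had 3.59 and 3.11 counts per DNAJA2 count in the DMSO libraries and 0.563 and 0.830 in the RB-1 libraries. Per DNAJB1 count, it had 2.31 and 2 in DMSO and 0.313 and 0.608 in RB-1. In both ratios DNAJA1 went from the larger count of the pair to the smaller one in each RB-1 library.

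DNAJB1, the main class B partner of the inducible HSP70, is the member best known as a heat shock gene. It had 203 CPM in each DMSO library and 305 and 212 CPM in the RB-1 libraries, both above. The second RB-1 library was close to DMSO, and the log2 fold change was 0.35 ± 0.25 with an adjusted p of 0.307. DNAJB4, a near relative, had 49.8 and 43.3 CPM in DMSO and 38.3 and 48.4 CPM in RB-1. Its groups overlapped, with a log2 fold change of -0.10 ± 0.28 (adjusted p = 0.809). DNAJB6 suppresses the aggregation of polyglutamine and amyloid proteins. Its level was 236 and 203 CPM in DMSO and 241 and 219 CPM in RB-1, which overlap, at 0.07 ± 0.23 (adjusted p = 0.838).

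DNAJB2 carries ubiquitin-binding motifs and directs HSP70 clients to the proteasome. It rose from 24.7 and 23.5 CPM in DMSO to 61.5 and 45.9 CPM in RB-1. The RB-1 libraries differed from each other, and both lay well above DMSO. Its log2 fold change was 1.15 ± 0.29 with an adjusted p of 0.0143. It did not pass when DMSO replicate 1 (adjusted p = 0.0941), DMSO replicate 2 (0.125) or RB-1 replicate 1 (0.0557) was left out.

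DNAJC7 has tetratricopeptide repeats that bind HSP70 and HSP90 and passes clients between them. It fell from 135 and 145 CPM in DMSO to 62.7 and 69.7 CPM in RB-1. Libraries of a group were close together and the groups well apart. This gave a log2 fold change of -1.08 ± 0.24 with an adjusted p of 0.00839, and among the 14 settings only the fit leaving out DMSO replicate 2 ended the call, at -1.01 with an adjusted p of 0.0835. With DNAJA1 and DNAJB2, this gene made 1 rise and 2 falls among the 9 general cytosolic and nuclear members, whose median log2 fold change was 0.071. These are 11.1% higher and 22.2% lower, against 12.5% and 15.8% of all genes.

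**Figure D2:**
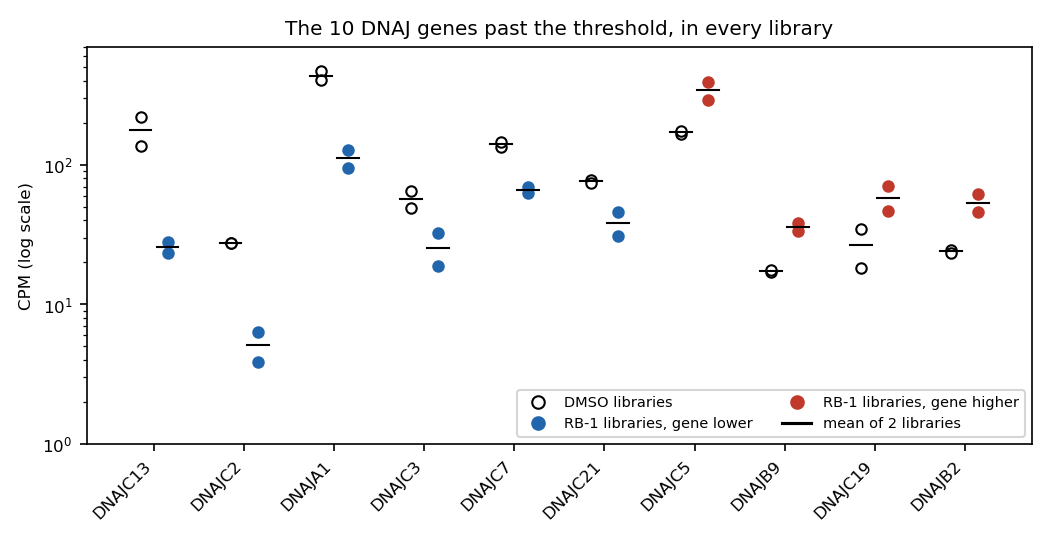
Level in CPM (log scale) of the 10 DNAJ genes past the threshold in every library, with open points for DMSO, filled points for RB-1 and lines for the mean of 2 libraries. The groups do not overlap for any of the 10, and the gap is widest for DNAJC13, DNAJC2 and DNAJA1. The 10 were picked by the test on these same libraries, and 69.7% of all genes tested had groups that did not overlap.

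In the endoplasmic reticulum, DNAJB9 and DNAJC3 went in opposite directions. DNAJB9 holds the stress sensor IRE1 in its inactive state and aids the degradation of misfolded secretory proteins. It rose from 17.1 and 17.6 CPM in DMSO to 33.7 and 38.4 CPM in RB-1, with close libraries in each group. The log2 fold change was 1.05 ± 0.28 with an adjusted p of 0.0197, and it no longer passed when DMSO replicate 1 (adjusted p = 0.145) or DMSO replicate 2 (0.141) was left out.

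DNAJC3 is a luminal co-chaperone also known as an inhibitor of the kinases that phosphorylate the translation factor eIF2α. It fell from 65.2 and 49.4 CPM in DMSO to 18.7 and 32.4 CPM in RB-1. The groups did not overlap, although each held a clear gap between its libraries. The fitted log2 fold change was -1.16 ± 0.33 with an adjusted p of 0.0251. This was the least stable of the 10 calls, kept in 8 of 14 settings. It ended when DMSO replicate 1 (adjusted p = 0.172), DMSO replicate 2 (0.0788) or RB-1 replicate 1 (0.110) was left out and with library totals (0.0827). Under the length and GC correction it ended at a log2 fold change of -0.56 (adjusted p = 0.0731), and with the replicate block added at -0.56 (0.0999).

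The other named members of this compartment did not pass. DNAJB11, an abundant partner of HSPA5 in the lumen, had 167 and 130 CPM in DMSO and 173 and 152 CPM in RB-1, which overlap (0.13 ± 0.24, adjusted p = 0.702). DNAJC10, a disulfide reductase of protein degradation, had 164 and 121 CPM in DMSO and 58.9 and 119 CPM in RB-1. Both RB-1 libraries were below, but they differed from each other by more than 1 on the log2 scale. Its log2 fold change was -0.68 ± 0.34 with an adjusted p of 0.157. Without RB-1 replicate 2 the fall was larger, at -1.27. With the replicate number as a block and the numbers crossed in RB-1, DNAJC10 passed as lower (-0.75, adjusted p = 0.0403). Under the length and GC correction its sign turned, to 0.56 with an adjusted p of 0.0502. That correction used a principal transcript of 20129 bases for DNAJC10. The sign also turned with the longest coding transcript (0.51) and with the transcript of the longest coding sequence (0.50), and did not with the median length.

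DNAJC1, a membrane protein at the ribosome, had 47.8 and 43.1 CPM in DMSO and 61.7 and 62.0 CPM in RB-1 (0.45 ± 0.26, adjusted p = 0.221). DNAJC16, another membrane protein of this compartment, had 28.6 and 26.1 CPM in DMSO and 17.9 and 19.4 CPM in RB-1 (-0.55 ± 0.28, adjusted p = 0.165). DNAJC25 had 14.2 and 14.1 CPM in DMSO and 21.9 and 22.1 CPM in RB-1 (0.64 ± 0.28, adjusted p = 0.115), and 13.8% of its exon bases are shared with a read-through gene, so its value is uncertain. In all 3 the groups did not overlap, as in 69.7% of all genes tested. Over the 11 members of the endoplasmic reticulum, 1 rose, 1 fell and the median log2 fold change was -0.17. Each direction is 9.09% of the group, against 12.5% higher and 15.8% lower over all genes.

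DNAJC19 is the subunit of the mitochondrial import motor that stimulates HSPA9 at the inner membrane. It rose from 34.9 and 18.4 CPM in DMSO to 70.2 and 46.4 CPM in RB-1. The groups did not overlap, yet the highest DMSO library was nearer to the lowest RB-1 library than to its own partner. Its log2 fold change was 1.13 ± 0.36 with an adjusted p of 0.0404. It did not pass when DMSO replicate 2 was left out (0.76, adjusted p = 0.294) or when RB-1 replicate 1 was (0.81, adjusted p = 0.207). The annotation holds 9 pseudogenes of DNAJC19, none of them in the table.

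DNAJC11, a protein linked to the complex that shapes the inner-membrane cristae, had 85.0 and 98.5 CPM in DMSO and 68.2 and 65.4 CPM in RB-1. Both RB-1 libraries were below, and the log2 fold change of -0.46 ± 0.25 did not pass (adjusted p = 0.188). It passed as lower under the length and GC correction, at -0.62 with an adjusted p of 0.0327, and 27.9% of its exon bases overlap THAP3 on the other strand, so reads of the pair may be mixed where strand was not used. Of the 5 mitochondrial members, 1 rose (20%, against 12.5% of all genes) and none fell (15.8% of all genes), with a median log2 fold change of -0.018.

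DNAJC2 sits on the ribosome next to the exit tunnel and, with HSPA14, forms the ribosome-associated complex that meets nascent chains. It fell from 27.7 and 27.5 CPM in DMSO to 3.90 and 6.38 CPM in RB-1. The DMSO libraries nearly coincided and both RB-1 libraries were several times lower. This gave a log2 fold change of -2.42 ± 0.34 with an adjusted p of 0.00104, and it passed in 14 of 14 settings, from -2.82 to -2.11. Of its exon bases, 9.57% overlap PMPCB on the other strand. HSPA14, named here for this partnership after its values were seen, fell as well, from 49.4 and 35.2 CPM to 18.4 and 24.3 CPM (-0.99 ± 0.31, adjusted p = 0.0354). The HSPA14 call ended when DMSO replicate 1 (adjusted p = 0.289), DMSO replicate 2 (0.0933) or RB-1 replicate 1 (0.134) was left out, with library totals (0.120) and with upper-quartile factors (0.0517).

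DNAJC21 acts in the maturation of the large ribosomal subunit. It fell from 78.1 and 74.4 CPM in DMSO to 30.8 and 46.3 CPM in RB-1, with no overlap. The log2 fold change was -0.98 ± 0.29 with an adjusted p of 0.0281, just under 2-fold. The call was kept in 10 of 14 settings, which do not include the length and GC correction with other transcript lengths. With those it ended for the longest coding transcript (adjusted p = 0.191), the transcript of the longest coding sequence (0.229) and the median length (0.0576). It ended when DMSO replicate 1 (adjusted p = 0.142), DMSO replicate 2 (0.149) or RB-1 replicate 1 (0.113) was left out, and with library totals (0.0990).

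DNAJC9, a chaperone of histones H3 and H4, had 116 and 99.9 CPM in DMSO and 98.9 and 83.7 CPM in RB-1. The RB-1 libraries were below by a small margin, at -0.24 ± 0.24 (adjusted p = 0.478), and 24.0% of its exon bases overlap FAM149B1. DNAJC17, a splicing-related protein, had 9.06 and 8.27 CPM in DMSO and 15.1 and 12.1 CPM in RB-1 (0.65 ± 0.31, adjusted p = 0.137), with 20.4% of its exon bases shared with GCHFR on the other strand. Among the 6 members of ribosome, chromatin and RNA processing, none rose and 2 fell, and the median log2 fold change was -0.072. The falls are 33.3% of this small group, against 15.8% of all genes, and 12.5% of all genes rose.

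DNAJC13 is a large endosomal protein that recruits HSPA8 to sort cargo and disassemble clathrin lattices, and it had the largest fold change of the family. It fell from 219 and 137 CPM in DMSO to 23.5 and 28 CPM in RB-1. The DMSO libraries were unequal and still each stood far above both RB-1 libraries. The fitted log2 fold change was -2.79 ± 0.30 with an adjusted p of 0.000328. It passed in 14 of 14 settings, from -3.07 to -1.95, and the smallest of these falls came with the length and GC correction.

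DNAJC5, a palmitoylated protein of secretory and synaptic vesicles that keeps SNAP25 folded, moved the other way. It rose from 167 and 175 CPM in DMSO to 396 and 290 CPM in RB-1. Both RB-1 libraries were well above DMSO, though apart from each other. Its log2 fold change was 1.0 ± 0.24 with an adjusted p of 0.0124. Leaving out DMSO replicate 1 (adjusted p = 0.0688), DMSO replicate 2 (0.0716) or RB-1 replicate 1 (0.0730) ended the call. DNAJC6, the auxilin that strips clathrin from vesicles with HSPA8, had 18.3 and 17.0 CPM in DMSO and 9.22 and 12.7 CPM in RB-1. Its groups did not overlap and it did not pass (-0.69 ± 0.31, adjusted p = 0.117). The 3 vesicle and endosome members thus held 1 rise and 1 fall, beside 12.5% higher and 15.8% lower over all genes.

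Among the 5 members placed in no group, none passed. DNAJC4 is the named one, with 7.40 and 9.09 CPM in DMSO and 12.5 and 12.3 CPM in RB-1, both above. Its log2 fold change was 0.59 ± 0.31 (adjusted p = 0.174), 10.6% of its exon bases are shared with NUDT22, and the sign turned under the length and GC correction (-0.12). The 14 members not described one by one had log2 fold changes from -0.67 to 0.76 and adjusted p-values from 0.255 to 0.971. The groups overlapped in 10 of the 14, both RB-1 libraries were above in 2 and below in 2. Over all genes tested, 69.7% had groups that did not overlap. The 14 are what the naming rule left after taking members with small p, so overlap among them follows partly from that choice.

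The members nearest the minimum carry little information. DNAJB13 summed to 66 counts, DNAJB7 to 88 and DNAJC28 to 96. Below it were DNAJA4 with 16, DNAJC12 with 4 and DNAJC5G with 2 counts, and DNAJB8 and DNAJC5B with 0. The CPM of the 2 DMSO libraries differed by more than 1 on the log2 scale in 2 members, DNAJB13 and DNAJB5, and DNAJB5 had 5.02 and 21.1 CPM there beside 24 and 20.2 CPM in RB-1. Between the RB-1 libraries 4 members did so, DNAJC10 and the sparse DNAJB7, DNAJB13 and DNAJC28.

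Levels of different genes are compared per kilobase of the principal transcript. The summed level of the 39 members was 1070 and 1007 CPM per kilobase in DMSO and 984 and 887 in RB-1. Class A made up 24.4% and 23.3% of this sum in DMSO and 12.3% and 13.5% in RB-1. Class B made up 34.1% and 33.6% in DMSO and 44.5% and 41.8% in RB-1, and class C 41.5% and 43.1% in DMSO and 43.2% and 44.6% in RB-1. In CPM per kilobase, class B was at 365 and 338 in DMSO and 438 and 371 in RB-1. The class A share was lower in both RB-1 libraries, while the class C shares differed little between the groups.

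DNAJA1 alone made 17.6% of the sum in DMSO (± 1.01, SD, n = 2), the largest share of any member, and 5.09% ± 1.43 in RB-1, the 7th largest. DNAJB6 held 13.1% ± 0.840 in DMSO and, with 15.3% ± 0.0766, the first place in RB-1. Shares are parts of 1 sum, so a gene at an unchanged level gains share when the sum is smaller. The CPM of DNAJB6 overlapped between the groups (log2 fold change 0.07 ± 0.23, adjusted p = 0.838). DNAJB1 held 8.64% ± 0.386 and then 12.1% ± 2.24, and DNAJC5 went from 3.16% ± 0.238 to 7% ± 1.03. These shares rest on the length chosen for each gene. With the longest coding transcript, DNAJA1 was first in DMSO and DNAJB1, not DNAJB6, was first in RB-1. With the transcript of the longest coding sequence, DNAJB6 was first in both groups and DNAJA1 ranked 2nd in DMSO. With the median length over coding transcripts, DNAJA1 made 10.2% in DMSO and 2.79% in RB-1 and ranked 4th and 11th, and DNAJB1 was first in both groups. The class A share in that case was 14.8% and 14.1% in DMSO and 7.62% and 8.39% in RB-1. In bulk RNA, fewer cells of a type and less RNA per cell cannot be told apart, and this holds for every level given here.

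**Figure D3:**
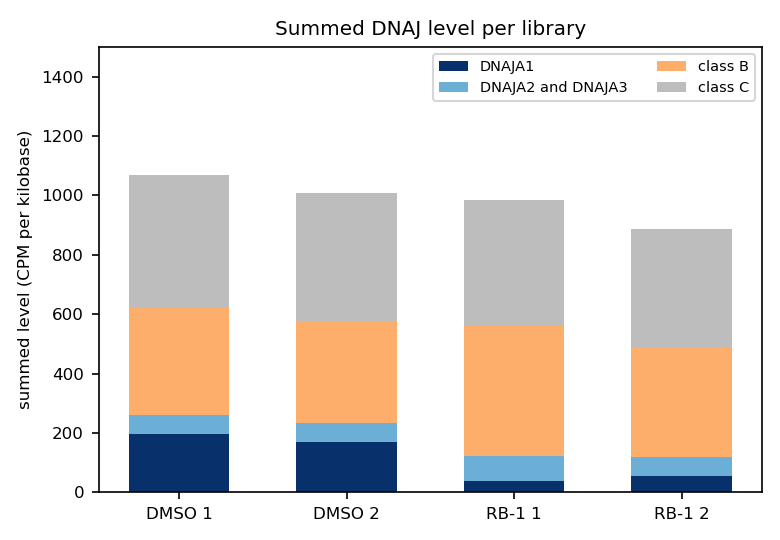
Summed level of the 39 DNAJ genes in each library, in CPM per kilobase of principal transcript, stacked as DNAJA1, the other class A genes, class B and class C. The DNAJA1 segment is smaller in both RB-1 libraries, and class A as a whole goes from 24.4% and 23.3% to 12.3% and 13.5% of the sum.

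Fold changes followed transcript length over the whole table, and the family did so too. Over 13596 genes with a known length the Spearman correlation of log2 fold change with length was -0.373 and with GC content 0.299. Over the 39 members it was -0.315 and 0.390. These are correlations across genes, which are not independent replicates and share the same 4 libraries. From the shortest to the longest length quartile of all genes, the median log2 fold change was 0.47, 0.14, -0.11 and -0.46, and among members it was 0.35, 0.10, 0.073 and -0.40. The 4 members that rose had a median length of 2946 bases and the 6 that fell 2345 bases, against 2763 for the rest. The fallers include short members such as DNAJC7 (2022 bases) and long ones such as DNAJC13 (7730 bases) and DNAJC3 (5591 bases).

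Fitting each library's trend over length and GC content as an offset gave 6 members higher and 6 lower, with 32.3% of all genes called. DNAJC3 lost its call, DNAJA2 and DNAJC25 passed as higher, and DNAJC11 passed as lower. The choice of transcript matters here, and 3 other lengths were tried after values had been seen. With the longest coding transcript, or the transcript of the longest coding sequence, 6 were higher and 5 lower, and DNAJC21 was lost as well. With the median length 5 were higher and 5 lower, and DNAJB2 was also lost. DNAJA1, DNAJC13, DNAJC2, DNAJC7, DNAJB9, DNAJC5 and DNAJC19 were called under all 4 lengths. The part of length and GC content in the results was otherwise not tested.

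**Figure D4:**
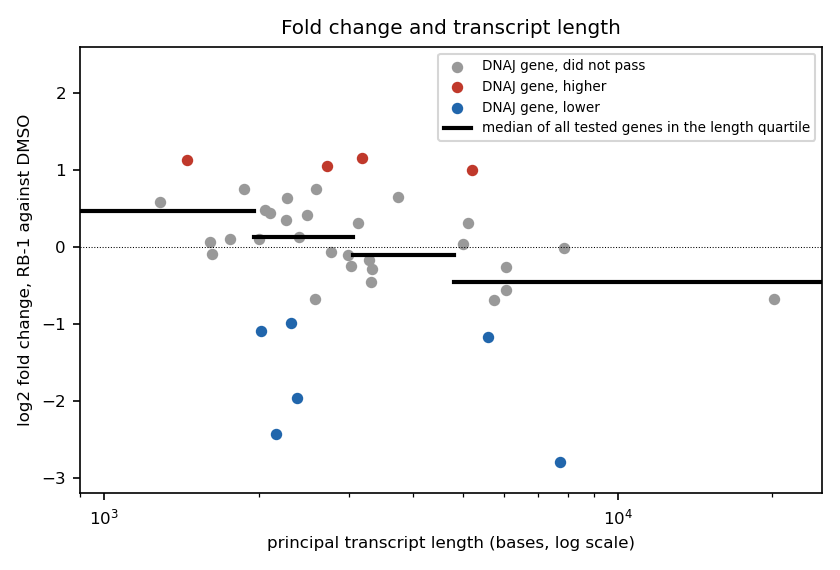
Log2 fold change of each DNAJ gene against the length of its principal transcript in bases (log scale), with black lines for the median of all tested genes in each length quartile. The lines step down from 0.47 to -0.46, while DNAJA1, DNAJC2 and DNAJC13 lie far below the line of their quartile.

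J-domain proteins act on HSP70, and the HSP110 chaperones, relatives that exchange nucleotide on HSP70, were counted in the same list. This list of HSP70 and HSP110 chaperones had a larger called share than the whole table. Of 16 tested, none rose and 9 fell (56.2%, against 15.8% of all genes), with a median log2 fold change of -0.77. The largest fall was that of HSPH1, the cytosolic HSP110 that exchanges nucleotide on HSP70, from 331 and 222 CPM to 30.1 and 45.5 CPM (-2.87 ± 0.31, adjusted p = 0.000332). HSPA8, the constitutive HSP70, fell from 3146 and 3307 CPM to 1460 and 1324 CPM (-1.21 ± 0.24, adjusted p = 0.00565). HSPA4L, a relative of HSPH1, fell from 114 and 81.5 CPM to 19.9 and 35.8 CPM (-1.81 ± 0.34, adjusted p = 0.00451). HSPA4 and HYOU1, named here after their values were seen, are also of the HSP110 type and among the 9 falls.

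HSPA9, the mitochondrial HSP70 that DNAJA3 and DNAJC19 serve, fell from 546 and 502 CPM to 233 and 294 CPM (-0.99 ± 0.23, adjusted p = 0.0111). Its call ended when DMSO replicate 1 (adjusted p = 0.0560), DMSO replicate 2 (0.0541) or RB-1 replicate 1 (0.0706) was left out. HSPA5, the HSP70 of the endoplasmic reticulum that DNAJB9, DNAJB11 and DNAJC3 serve, was named here after its values were seen. It had 1071 and 940 CPM in DMSO and 1131 and 1250 CPM in RB-1 and did not pass (0.24 ± 0.23, adjusted p = 0.447). In place of 9, the count lower in the HSP70 and HSP110 list was 4 with library totals. The share of all genes called lower was then 10.1%, against 15.8% with the main settings. The count was also below 9 in each fit that left out 1 library.

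The HSP110-type exchange factors HSPH1, HSPA4L, HSPA4 and HYOU1 were counted in the list above and are not in the next one. Of its 11 nucleotide exchange factors and cofactors of HSP70, none rose and 1 fell, with a median of 0.33. The share lower was 9.09%, against 15.8% of all genes, and 12.5% of all genes were higher. The gene that fell is named next. It was BAG3, which links HSP70 to selective autophagy, at 299 and 427 CPM in DMSO and 189 and 190 CPM in RB-1 (-0.94 ± 0.25, adjusted p = 0.0180). STUB1, the ubiquitin ligase that tags HSP70 clients, had 31.9 and 29.5 CPM in DMSO and 69.2 and 43.6 CPM in RB-1 (0.88 ± 0.30, adjusted p = 0.0523). The BAG3 call ended when DMSO replicate 2 (adjusted p = 0.197), RB-1 replicate 1 (0.0844) or RB-1 replicate 2 (0.0517) was left out. Rises appeared in other settings, and the genes named for them beside STUB1 were chosen after their values were seen. STUB1 passed as higher with upper-quartile factors, library totals, no filter, the stricter filter and DESeq2, with adjusted p from 0.0262 to 0.0483, and when RB-1 replicate 2 was left out (0.0172), as did GRPEL1 there (0.0497). GRPEL2 passed with upper-quartile factors (0.0390) and DESeq2 (0.0431), and GRPEL2 (0.00467), BAG2 (0.0387) and BAG4 (0.0260) passed as higher under the length and GC correction and again with the block added.

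Of 4 J-domain genes outside the DNAJ nomenclature, SEC63, which recruits HSPA5 to the translocon, fell from 135 and 130 CPM to 47.4 and 67.2 CPM (-1.21 ± 0.26, adjusted p = 0.00823). That call ended under the length and GC correction (-0.51, adjusted p = 0.0603) and when DMSO replicate 2 was left out (-1.21, adjusted p = 0.0584). HSCB, the iron-sulfur cluster co-chaperone, had 4.47 and 4.39 CPM in DMSO and 10.2 and 5.23 CPM in RB-1 (0.79 ± 0.38, adjusted p = 0.144), and passed as higher when RB-1 replicate 2 was left out (1.2, adjusted p = 0.0379). Of 3 heat shock transcription factors none passed with the settings above. HSF1 had 121 and 170 CPM in DMSO and 98.5 and 89.8 CPM in RB-1 (-0.62 ± 0.25, adjusted p = 0.0890), and passed as lower under the length and GC correction (-1.08, adjusted p = 0.00536), also with the block (-1.07, 0.0110). HSF2 had 17.3 and 14.4 CPM in DMSO and 5.59 and 12.2 CPM in RB-1 (-0.83 ± 0.39, adjusted p = 0.131), and passed as lower when RB-1 replicate 2 was left out (-1.50, adjusted p = 0.0184).

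**Figure D5:**
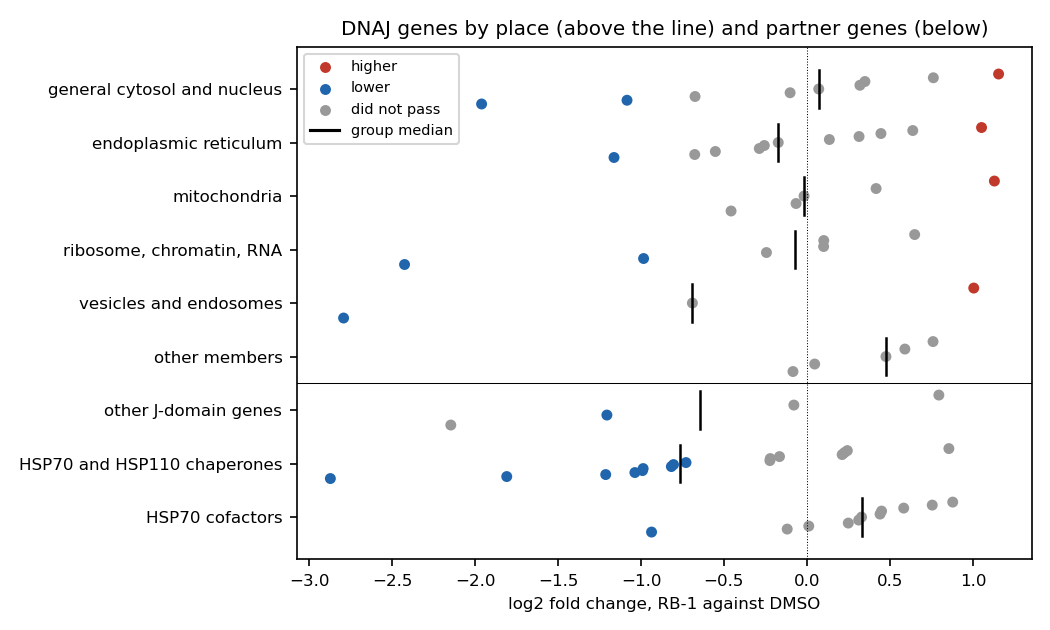
Log2 fold change of the DNAJ genes grouped by the place or process they are known for (above the line) and of partner genes from lists (below the line); colour shows the call and black ticks the group median. The general cytosolic group holds 1 rise and 2 falls, and the HSP70 and HSP110 group 9 falls and no rise. Over all genes 12.5% were higher and 15.8% lower.

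Promoter sequence was read because several members are classical heat shock genes. RefSeq promoter windows (GRCh38.p14), each 250 bases before to 50 bases after a start, were found for 36 of the 39 members, 46 windows in all. The heat shock factor binds inverted repeats of GAA, searched on both strands as TTCNNGAA and GAANNTTC and, for 3 adjoining units, as GAANNTTC followed directly by NNGAA, which contains both shorter motifs. TTCNNGAA was in 8.70% of member windows and 7.74% of 35116 windows of all genes, and GAANNTTC in 13.0% and 6.77%. The run of 3 units was in 4.35% of member windows, those of DNAJA1 and DNAJB6, and in 0.490% of all windows. The endoplasmic reticulum stress element, CCAAT and CCACG with 9 free bases between them, was in 0 member windows and 0.0769% of all windows. The motif TGACGTGG was in 1 member window, that of DNAJC10 (2.17%, against 0.729% of all windows).

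The stretches before the start are shown for the 3 abundant members that hold heat shock motifs, of which DNAJA1 fell and DNAJB1 and DNAJB6 did not pass. Capitals mark TTCNNGAA and GAANNTTC, and each is written on the gene's own strand.
DNAJA1, chr9:33025035-33025122, plus strand: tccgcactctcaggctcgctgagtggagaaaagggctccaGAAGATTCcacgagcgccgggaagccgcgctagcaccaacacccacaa
DNAJB1, chr19:14518398-14518514, minus strand: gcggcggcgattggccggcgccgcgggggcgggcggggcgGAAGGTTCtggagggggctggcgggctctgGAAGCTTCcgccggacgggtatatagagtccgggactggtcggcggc
DNAJB6, chr7:157336833-157336925, plus strand: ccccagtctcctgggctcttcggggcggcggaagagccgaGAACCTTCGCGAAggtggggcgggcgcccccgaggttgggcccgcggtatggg
In DNAJB6 the run of 3 units spans bases 131 to 119 before the start. In DNAJA1 it reads GAACTTTCCAGAA and lies at bases 4 to 16 after the start, chr9:33025276-33025288. A match is a description of these letters and not a site shown to be bound. DNAJA1 and DNAJB6 thus share the run of 3 units and had log2 fold changes of -1.96 ± 0.25 and 0.07 ± 0.23.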

How the data were processed

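RNA-seq libraries of MDA-MB-231 cells, 2 with DMSO and 2 with RB-1 for 24 h, were compared. The authors deposited raw read counts per gene, 1 column per library, with no normalisation, judged from whole numbers of unequal totals. The aligner, the counter and the strand setting are details not given in the sources used here. Per the submitters' processing notes the builds are GRCm38 and mm10, which are mouse builds, while the identifiers are human, so no coordinates are taken from the counts. Symbols came from a human gene name table, which matched 20148 of 20263 identifiers.

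Genes were kept by filterByExpr and tested with edgeR 4.0.16 in R 4.3.3 (TMM factors, estimateDisp, robust glmQLFit, glmQLFTest), with 2 residual degrees of freedom, and checked on simulated counts. The standard error is the log2 fold change divided by the square root of F, with a median of 0.288 over members. The chi-square per degree of freedom between replicates was 256.6 in DMSO and 128.0 in RB-1, so replicates differed by more than sampling noise.

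Values in every library are given for members called with a log2 fold change of at least 1, for a panel of 12 genes, for the 8 next by p, and for 4 HSP70 and HSP110 genes and 2 of each other list. Genes outside this rule are marked. Members and lists were chosen with earlier results of these data known. Alternatives were upper-quartile and RLE factors, unscaled totals, no filter, CPM of at least 1 in all libraries, DESeq2 1.42.0, limma-voom (limma 3.58.1), each library left out, the replicate number as a block, and offsets for length and GC content with splines of 5 degrees of freedom. Lengths came from the APPRIS principal coding transcript of GENCODE v29. This length was adopted after 3 others had been tried and their outputs seen, and all 4 are reported. The other 3 lengths and a pairing with crossed numbers were added after seeing the data. Protein sequences were not analysed here. 1 gene that a list holds is not reported here.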

Additional observations from a re-analysis of the deposited data

How the results depend on the processing

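Over 14 alternatives for each of the 10 called members, 119 of 140 values kept direction and call, 21 kept direction only and none changed sign. The 14 leave out the 3 other lengths, under some or all of which the calls of DNAJB2, DNAJC3 and DNAJC21 ended. DNAJA1, DNAJC13 and DNAJC2 passed in all 14. Of 210 values for the 15 other named members, 189 stayed as they were, 6 came to pass and 15 changed sign. Without each library in turn, members higher numbered 1 to 4 and members lower 3 to 7; class B members higher 0 to 2, class C members higher 0 to 2 and class C members lower 2 to 6; class A stayed at 1 lower and none higher. The median log2 fold change of members ranged from -0.031 to 0.17 in these fits. It was 0.16 with upper-quartile factors and 0.24 with library totals, which moved the median of all genes by 0.105 and 0.197, and class C members lower numbered 3 with library totals. Called genes in all then split into 2015 higher and 1381 lower, against 1702 and 2149. Class A members higher numbered 1 under the length and GC correction with each of the 4 lengths, and class B members higher 1 with the median length. The cause of these changes was not tested.

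All sign changes were in members that did not pass. DNAJA3 was 0.034 with upper-quartile factors, 0.12 with library totals and from -0.47 to 0.25 with each library left out. DNAJB4 was 0.0080, 0.091 and from -0.28 to 0.064 (0.0008 leaving out DMSO replicate 1, 0.064 leaving out RB-1 replicate 1). With each library left out, DNAJB11 ranged from -0.013 to 0.33 and DNAJB6 from -0.013 to 0.18. With the length and GC correction, alone and with the replicate block, DNAJB11 was -0.050 and -0.033, DNAJC10 0.56 and 0.56, and DNAJC4 -0.12 and -0.13. With the longest coding transcript, DNAJB1 was -0.016, DNAJB11 -0.11, DNAJB6 -0.13, DNAJC10 0.51 and DNAJC4 -0.16. With the transcript of the longest coding sequence, DNAJB11 was -0.022, DNAJB6 -0.52, DNAJC10 0.50 and DNAJC4 -0.16. With the median length, DNAJB1 was -0.025, DNAJB4 0.12, DNAJB6 -0.16, DNAJC6 0.017 and DNAJC9 0.069.

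The replicate block gave 4 members higher and 6 lower, as without it, and 5 and 6 with the length and GC correction. Nothing in the labels says that equal numbers mark shared samples, and deviations of same-numbered libraries correlated at -0.118. With crossed numbers, 3 members were higher and 7 lower, DNAJC10 among the 7, with 1 class C member higher. With 2 libraries per group, a member that did not pass may still differ: the median standard error of 0.288 over members is on the log2 scale.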
